A study of Mus musculus with 2 samples.

Results

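Droplets that carried 20 to 100 UMIs (unique molecular identifiers, 1 per captured RNA molecule) were taken from both single-cell libraries and summed per library, 104853 of the 707712 barcodes with a UMI. The control library gave 29040 such droplets with 2506311 UMIs and the knockout library gave 75813 with 3446311 UMIs. Each sum was set beside the bright barcodes of its own library, those with at least 2000 UMIs (1011 in control, 406 in knockout). Each library pooled the hippocampi of 4 littermates at P14, papain-dissociated and sorted for DAPI-negative, tdT-positive Cajal-Retzius (CR) cells before 10x Genomics 3′ capture. Control mice were *ΔNp73-Cre; Cic flox/+; tdT* (3 male, 1 female) and knockout mice were *ΔNp73-Cre; Cic flox/flox; tdT* (2 male, 2 female). Both genotypes therefore carried the Cre, the Cre-dependent *tdT* reporter and at least 1 floxed allele of *Cic*, a gene for a transcriptional repressor, so that control CR cells were heterozygous. *ΔNp73-Cre* acts in the progenitors of CR cells, and per the study CIC was lost from most but not all CR cells of the knockout. With 1 library per genotype there was no replicate and no test: intervals below are exact 95% Poisson intervals of a ratio and cover counting error only.

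In droplet capture, most droplets receive a barcoded bead and buffer but no cell. RNA that leaked from broken cells floats in that buffer and is captured at a low level in each droplet, cell or not. Such RNA is generally held to come mainly from the cytoplasm, while nuclei and mitochondria tend to keep theirs. CR cells are early-born neurons of the marginal zone that secrete reelin and persist in the hippocampus longer than in the neocortex.

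The droplets were chosen by their UMI total alone, so the totals are a description, and a droplet without a cell and a cell fragment of the same total cannot be told apart. In control, 15.3% of the UMIs lay in droplets, and in knockout 50.9%, with a median of 89 UMIs per droplet in control and 44 in knockout. The middle 80% of droplets lay at 72 to 98 UMIs in control and 32 to 60 in knockout. Among all barcodes of 10 to 200 UMIs the median was 107 in control and 44 in knockout, and the window took in 37.3% of them in control and 98.7% in knockout. The upper limit thus passed through the crowded range of the control library, where 1370 barcodes had exactly 100 UMIs and 1489 had 1 more, but not of the knockout library, where 26 and 20 did. At the lower limit, 35 control and 93 knockout barcodes had 19 UMIs and 43 and 91 had 20.

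**Figure D1:**
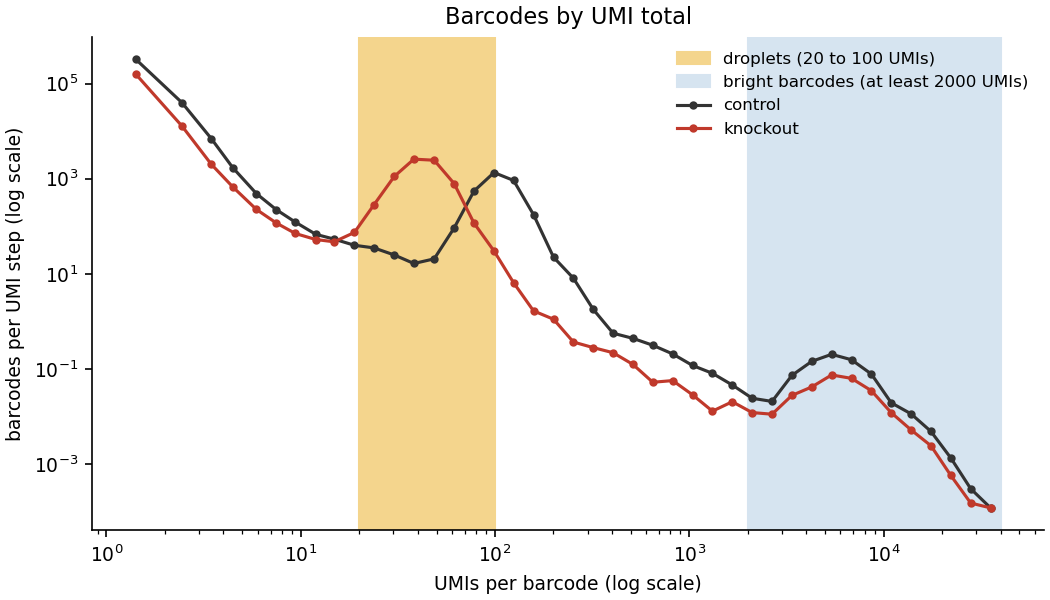
Number of barcodes per UMI step (y axis, log scale) by UMIs per barcode (x axis, log scale), as 1 line for control and 1 for knockout, with the droplets of 20 to 100 UMIs and the bright barcodes of at least 2000 UMIs shaded. The crowded range has a median of 107 UMIs in control, so the window ends inside it, and 44 UMIs in knockout, so the window holds nearly all of it.

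Genes of ribosomes, respiration and short cytosolic proteins were higher in droplets than in bright barcodes of the same library, and mitochondrially encoded, nuclear-retained and many membrane-protein transcripts were lower. Levels are counts per 1000000 UMIs of a sum (CPM), all genes included, and a ratio is droplet CPM over bright CPM. A gene was called higher or lower where the whole interval of its ratio lay above 2 or below 0.5, among genes with at least 100 UMIs in the droplet and bright sums together. In control, 1516 of 9565 genes (15.8%) were called higher and 2224 (23.3%) lower, and in knockout 1413 of 8408 (16.8%) were higher and 1846 (22.0%) lower. Among the 8330 genes with enough UMIs in both libraries, 1236 (14.8%) were higher in each, 1611 (19.3%) were lower in each, and 0 were called in opposite directions. Over the tested genes of each library, the Spearman coefficient of droplet CPM with bright CPM was 0.548 in control and 0.461 in knockout. Over the 8330 genes tested in both, droplet CPM of the control and knockout libraries gave 0.973 and bright CPM gave 0.979. These are descriptions across genes of pools that share a protocol, with no p. By this coefficient, over these unlike sets of genes, the mix in the droplets was closer to that of the other library's droplets than to that of the bright barcodes of its own library.

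**Figure D2:**
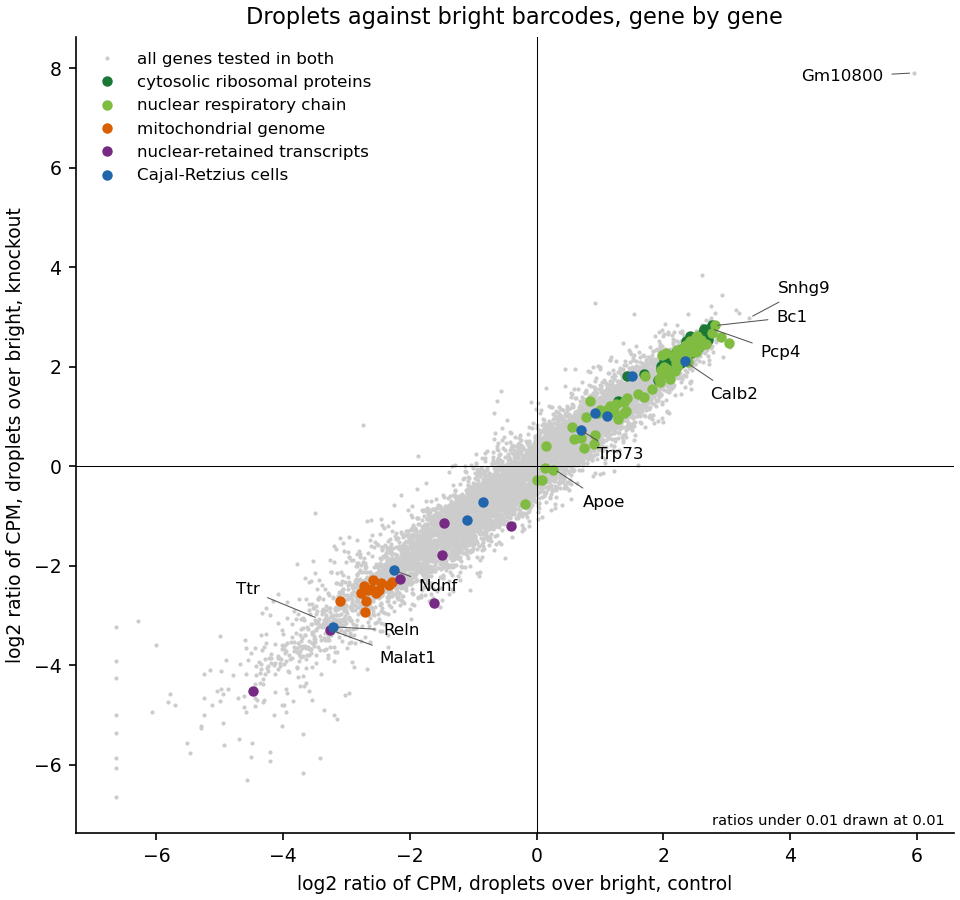
The log2 ratio of droplet CPM to bright CPM in knockout (y axis) against the same in control (x axis), 1 point for each gene tested in both libraries, with 5 gene lists in colour and lines at equal level; ratios under 0.01 are drawn at 0.01. *Pcp4*, *Bc1*, *Calb2* and the ribosomal protein genes lie to the upper right, higher in droplets of both libraries, and *Reln*, *Ttr*, *Malat1* and the mitochondrial genome lie to the lower left.

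Among the genes with the highest ratios was *Bc1*, a short RNA polymerase III transcript that is not translated and is carried into dendrites. *Bc1* had 6700 UMIs in control droplets and 2706 in control bright barcodes, a ratio of 6.94 (6.63 to 7.26), and 19158 and 2350 UMIs in knockout, a ratio of 7.08 (6.78 to 7.39). *Pcp4*, a neuronal protein that binds calmodulin, had 7151 and 2996 UMIs in control (6.69, 6.41 to 6.98) and 8894 and 1130 in knockout (6.83, 6.42 to 7.27). *Rpl39*, a protein of the large ribosomal subunit, stood at 6.84 in control and 7.12 in knockout. *Tmsb4x*, which binds actin monomers, stood at 7.22 (6.94 to 7.51) and 6.57 (6.18 to 6.98). Their sequences are printed as examples of the short products among the leading droplet RNAs. *Bc1* is given whole (GRCm38, GENCODE M21, chr7:144914470-144914637, plus strand, 168 bases, a noncoding exon) with its longest run of A, 23 bases at positions 77 to 99 from its 5′ end, in capitals. For the others the coding sequence alone is given, with start and stop codons in capitals: *Pcp4* (62 residues, gene at chr16:96467606-96525793, plus strand), *Rpl39* (51 residues, chrX:37082520-37085402, minus strand) and *Tmsb4x* (44 residues, chrX:167207093-167209315, minus strand).
Bc1: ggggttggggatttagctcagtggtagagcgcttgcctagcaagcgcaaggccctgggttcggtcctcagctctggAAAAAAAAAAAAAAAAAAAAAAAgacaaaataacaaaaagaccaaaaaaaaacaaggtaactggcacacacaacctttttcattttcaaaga
Pcp4: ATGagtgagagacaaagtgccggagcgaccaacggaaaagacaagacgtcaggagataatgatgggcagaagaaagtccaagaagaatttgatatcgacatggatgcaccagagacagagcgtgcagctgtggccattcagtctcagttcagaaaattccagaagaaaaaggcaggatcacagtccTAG
Rpl39: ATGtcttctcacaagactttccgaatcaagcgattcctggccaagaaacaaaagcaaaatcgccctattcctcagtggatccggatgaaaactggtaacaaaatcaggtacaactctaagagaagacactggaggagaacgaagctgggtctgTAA
Tmsb4x: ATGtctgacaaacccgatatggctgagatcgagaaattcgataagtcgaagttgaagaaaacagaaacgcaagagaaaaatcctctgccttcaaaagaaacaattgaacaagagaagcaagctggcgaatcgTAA

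The 12 genes with the highest ratios in both libraries also held the ribosomal protein genes *Rpl38*, *Rpl37* and *Rps29* (6.35 to 6.84), *Atp5g3* of the mitochondrial ATP synthase (7.04 and 7.13), the small nucleolar host transcript *Snhg9* (10.2 and 7.87), histone gene *Hist1h4d* (8.84 and 8.83), *Gtse1* (7.58 and 10.9) and the predicted gene *Gm10800*. *Gm10800* stood at 79.4 CPM in control droplets, with 9 UMIs in bright barcodes, and had 276 and 1 UMIs in knockout. Its ratios were 62.0 (32.0 to 137) and 240 (42.6 to 9496). If each bright barcode had carried as many *Gm10800* UMIs as the mean droplet, 6.93 UMIs in control and 1.48 in knockout would lie in bright barcodes, close to the 9 and 1 found. *Snhg9* lies opposite *Rps2*, a ribosomal protein gene, and *Pcp4* overlaps *Igsf5* on its own strand, so their counts may share reads. The 12 genes spanned a median of 2359.5 bases in the genome (168 to 58188), and 10 of them were protein-coding.

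At the other end, the 12 genes with the lowest ratios spanned a median of 76792.5 bases (9604 to 1245101), and 6 were protein-coding. They included *Cntn5* (0.0458 and 0.0482), a cell-surface adhesion molecule, *Lingo2* (0.0501 and 0.0514), a transmembrane leucine-rich repeat protein, *Hs6st3* (0.0483 and 0.0485), which sulfates heparan sulfate, and *Pde10a* (0.0304 and 0.0434), a phosphodiesterase. *Lrtm1* had 1 UMI in control droplets against 281 in bright barcodes, and 1 against 104 in knockout (ratios 0.00997, 0.000252 to 0.0560, and 0.00835, 0.000209 to 0.0475). *Lrrc19* had 0 UMIs in control droplets against 281, at least 33.4-fold lower with 3 counts in the droplet sum as the floor, and 2 against 116 in knockout, a ratio of 0.0150 (0.00179 to 0.0553). *Lrtm1* and *Lrrc19* lie opposite *Cacna2d3* and *Ift74*, so their reads are uncertain. The noncoding members were *4930415C11Rik*, *Gm10475*, *Nrg3os*, *Kcnq1ot1*, *Dtnbos* and *Lncpint*, with *Kcnq1ot1*, a long transcript retained at its own locus, at 0.0448 and 0.0434. *Gm10475* lies antisense within *Reln*, and since the use of strand in counting is not given in the sources used here, its reads and those of *Reln* cannot be told apart.

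The 10 most abundant genes held 14.6% of droplet UMIs in each library, and 9 of the 10 were shared. *Gm42418* led with 6.02% in control and 6.08% in knockout, followed by *AY036118* with 3.05% and 2.48%. Both overlap on opposite strands of chromosome 17 at an rRNA-like sequence, so they were read together as rRNA-like features, whose ratio was 3.89 in control and 3.33 in knockout. *Cmss1*, *Cdk8*, *Gphn* and *Lars2* were also among the 10 in both libraries, with ratios of 2.66 to 3.81, although their bodies, *Gphn* above all, are long. *Ubb*, a polyubiquitin gene, was also among the 10 in both libraries (17165 UMIs in control droplets, 21771 in knockout, ratios 5.48 and 5.35). *Hsp90ab1*, a cytosolic chaperone, completed the 10 in control and *Bc1* in knockout.

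Of 10 functional classes, 7 were past the fold upward and 2 downward in each library. Cytosolic ribosomal protein genes made up 11.9% of droplet UMIs in control and 10.5% in knockout, at 118668 CPM against 22350 in bright barcodes and 105161 against 20355.6, for ratios of 5.31 (5.28 to 5.34) and 5.17 (5.12 to 5.21). All 82 tested members of 85 were called higher in each library. The background to this count is the 15.8% and 16.8% of all tested genes given above, and the median ratio of all tested genes was 0.848 in control and 0.950 in knockout. Nuclear genes of the respiratory chain stood at 3.82 and 3.54, with 67 of 86 members called higher in control, 63 in knockout and 0 lower in either. Short cytosolic transcripts stood at 4.46 and 4.04, with 10 of 10 higher, among them *Tpt1* (5.78 and 4.45) and *Gapdh* of glycolysis (3.22 and 3.26).

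Immediate early and heat shock genes were also past the fold as lists, though 1 member of each carried the call in knockout. Immediate early genes stood at 2.41 and 2.44, with 6 of 11 tested called higher. The share called higher among all tested genes was 15.8% in control and 16.8% in knockout. *Fos*, a transcription factor induced by activity and by tissue handling, had 4391 UMIs in control droplets and 3555 in bright barcodes (3.46, 3.31 to 3.62) and 6291 and 1410 in knockout (3.87, 3.65 to 4.11), and *Jun* stood at 3.25 and 3.14. Without *Fos*, their most abundant member, the list stood at 2.07 (2.01 to 2.13) in control and 1.98 (1.92 to 2.06) in knockout, where the call was lost. *Npas4*, induced by neuronal activity, stood at 0.96 and 0.95 and was not past the fold. Heat shock genes stood at 2.75 and 2.28, but 3 members of 8 tested in control and of 7 in knockout were past the fold, and without *Hsp90ab1* the list stood at 2.36 (2.29 to 2.44) and 2.06 (1.98 to 2.14), the latter no longer called. The list of dendritically localised transcripts was past the fold at 2.22 and 2.07 through the elongation factor *Eef1a1* (4.42 and 4.17), and without it the list stood at 0.783 and 0.872. The dendritic cytoskeletal gene *Map2* stood at 0.59 and 0.70.

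The classes below the fold were the mitochondrial genome and the nuclear-retained transcripts. The 13 protein-coding transcripts of the mitochondrial genome had 12565 UMIs in control droplets against 208544 in bright barcodes, a ratio of 0.169 (0.166 to 0.172), and 0.176 in knockout, with 13 of 13 members lower in each. The sums of nuclear-encoded and of mitochondrially encoded respiratory chain transcripts thus lay on opposite sides of 1, although single nuclear members reached down to 0.878 in control and 0.594 in knockout. Nuclear-retained transcripts stood at 0.114 and 0.112, with 5 of 7 members called lower in control and 6 in knockout. For both classes, the share called lower among all tested genes was 23.3% in control and 22.0% in knockout. *Malat1*, an abundant nuclear RNA, had 15526 UMIs in control droplets and 419395 in bright barcodes, and 20586 and 174036 in knockout, for ratios of 0.104 and 0.103. A list of genes high in the knockout, which was chosen from these libraries, stood at 0.882 and 0.524.

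Further families, chosen after the values had been seen and so only described, mostly lay past the fold on the same sides. Proteasome subunits stood at 2.69 and 2.61 (23 of 35 tested higher in each library, 0 lower). Chaperonin subunits, which fold cytosolic proteins, stood at 3.54 and 3.26 (7 of 7), and tubulins at 3.02 and 3.05 (9 of 9). Translation factors stood at 3.08 and 3.01, with 32 of 62 tested higher and 3 lower in control, and 32 of 61 and 3 in knockout. Among all tested genes, 15.8% were called higher and 23.3% lower in control, and 16.8% and 22.0% in knockout. Glycolytic enzymes stood at 3.55 and 3.51, led by *Aldoa* (6.21 and 5.51). Membrane and adhesion families were low. Potassium channel subunits stood at 0.142 and 0.143, cadherins and protocadherins at 0.136 and 0.146, and GABA-A and ionotropic glutamate receptor subunits at 0.153 and 0.170. *Kcnip2*, a cytosolic calcium sensor of potassium channels, was the one member of its family called higher (3.36 and 3.58). Granins and neuropeptides, which are cargo of secretory vesicles, were not past the fold as a list, at 0.677 and 0.576. *Chgb* stood at 0.26 and 0.21 and *Pcsk1n* at 1.44 and 1.14.

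Ratio fell with the length of the encoded protein and with the span of the gene. Of tested genes for proteins under 100 residues, 68.3% were called higher and 4.44% lower in control, and 62.9% and 2.86% in knockout. Of those for proteins of at least 1600 residues, 0.606% were higher and 51.5% lower in control, and 1.52% and 44.8% in knockout. Proteins under 200 residues accounted for 33.7% of coding UMIs in control droplets against 12.02% in bright barcodes, and for 31.2% against 12.2% in knockout. By gene span, 57.3% of genes under 5000 bases were higher in control and 55.6% in knockout, whereas 87.9% and 85.6% of genes of at least 320000 bases were lower. Where a short protein came from a long gene, lower calls outnumbered higher ones, and where a long protein came from a short gene they did not. Short proteins (under 200 residues) of long genes (at least 80000 bases) had a median ratio of 0.551 in control, with 3 of 51 higher and 18 lower, and 0.556 in knockout, with 3 of 50 higher and 19 lower. Long proteins (at least 800 residues) of short genes (under 20000 bases) had a median ratio of 1.14 in control, with 20 of 195 higher and 13 lower, and 1.30 in knockout, with 24 of 166 higher and 17 lower. Over all tested genes, 15.8% were higher and 23.3% lower in control, and 16.8% and 22.0% in knockout. For long proteins of short genes, the shares called higher and lower were both below these in each library. Short proteins of short genes had medians of 3.21 and 3.08, and long proteins of long genes 0.293 and 0.343. Whether UMIs in introns were counted is not given in the sources used here, and the part of intronic reads in this result was not tested.

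**Figure D3:**
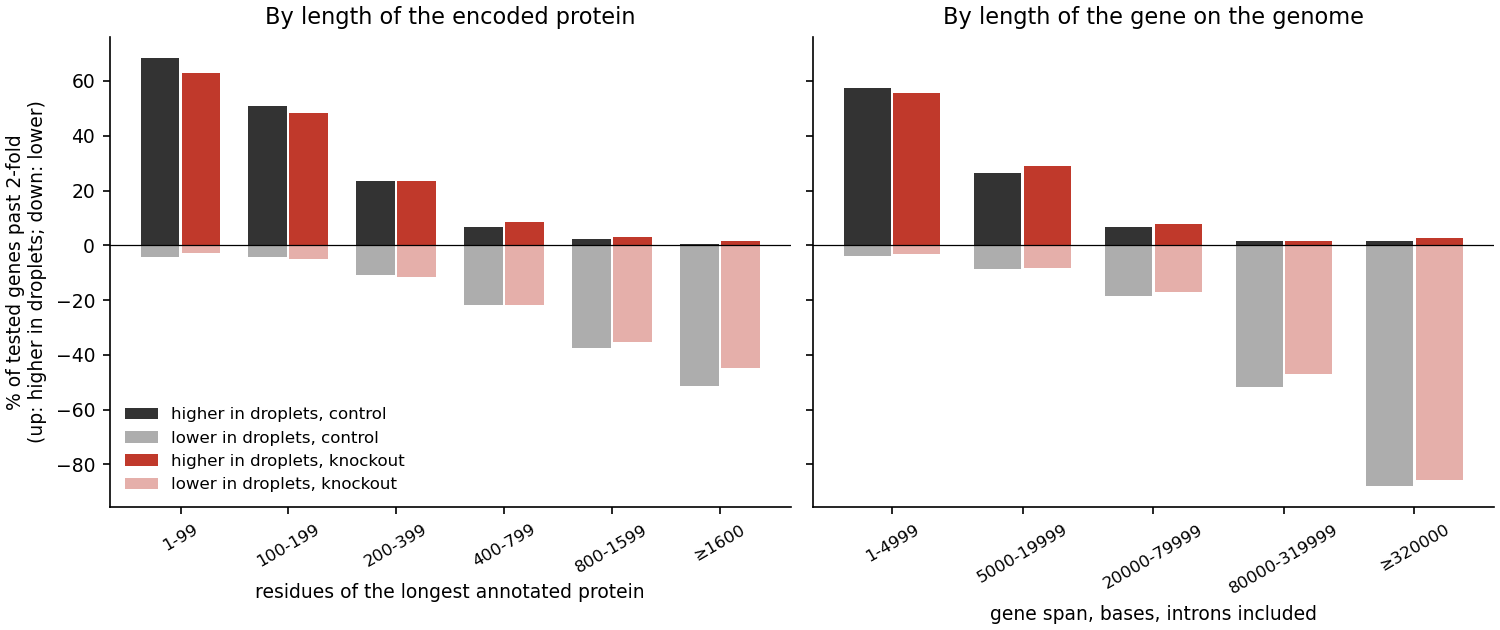
Percent of tested genes past 2-fold (y axis), drawn upward for genes higher in droplets and downward for genes lower, by residues of the longest annotated protein (left) and by gene span in bases (right), with control and knockout as separate bars. In control the share called higher falls from 68.3% to 0.606% from the shortest to the longest proteins, and the share called lower reaches 87.9% in the genes of widest span.

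CR markers were by far the most abundant cell-type markers of the droplets, with 4929.6 CPM in control and 5444.7 in knockout for 9 genes, against 763 and 1217 for the 107 markers of 16 other cell types together. Within the CR list, however, the 5 transcription factors together stood at 1.30 (1.26 to 1.34) and 1.47 (1.42 to 1.52), not past the fold. The 3 secreted or membrane proteins together stood at 0.174 (0.169 to 0.179) and 0.188 (0.184 to 0.193), past the fold downward. This split was not among the planned lists, so it only describes. Gene span was not separated from it. *Reln* spans 460249 bases, and tested genes of at least 320000 bases had median ratios of 0.132 in control and 0.164 in knockout. *Calb2*, a cytosolic calcium buffer, had 1233 UMIs in control droplets and 684 in bright barcodes (5.05, 4.60 to 5.55) and 2193 and 442 in knockout (4.31, 3.89 to 4.78). The transcription factor *Nhlh2* stood at 2.83 (2.64 to 3.04) and 3.51 (3.24 to 3.81), *Lhx5* at 2.15 and 2.02, *Lhx1* at 1.89 and 2.11, and *Trp73*, whose locus drives the Cre, at 1.62 (1.52 to 1.71) and 1.65 (1.55 to 1.77). *Calb2* and *Nhlh2* were past the fold in both libraries, and the other 3 had intervals that reached below 2. *Reln*, which encodes the secreted glycoprotein that defines CR cells, had 2085 UMIs in control droplets against 53981 in bright barcodes (0.108, 0.104 to 0.113) and 2675 against 21789 in knockout (0.107, 0.102 to 0.111). The secreted factor *Ndnf* stood at 0.209 and 0.234 and the calcium channel subunit *Cacna2d2* at 0.556 and 0.603. *Ebf3* was the transcription factor that stood with them, at 0.466 and 0.469. The 9 genes together stood at 0.346 (0.340 to 0.353) and 0.399 (0.392 to 0.406), a sum led by *Reln* and *Ndnf*. Without *Reln* the list stood at 0.626 (0.613 to 0.640) and 0.735 (0.720 to 0.751), no longer past the fold. The level of CR markers in the droplets relative to bright barcodes thus depended on the marker read. It ran from the ratio of *Reln* below 0.5 to that of *Calb2* above 2. *Reln* was found in 99.5% of control and 97.3% of knockout bright barcodes, but *Calb2* in 26.6% and 34.7%. Which cells the droplet RNA of *Calb2* came from was not tested.

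Of the markers of other hippocampal neurons, little RNA was found. The pyramidal neuron list had 66.2 CPM in control droplets and 87.9 in knockout, mostly from *Mpped1* and *Fibcd1*, and *Neurod6*, a transcription factor of pyramidal neurons, had 0 UMIs in both, which allows up to 1.20 CPM in control and 0.870 in knockout. *Slc17a7*, the vesicular glutamate transporter of forebrain excitatory neurons, had 0 and 2 UMIs. The granule neuron list had 41.1 and 49.3 CPM, of which *Calb1*, a calcium buffer, gave 68 of 103 UMIs and 85 of 170, while *Prox1*, the transcription factor that defines granule neurons, gave 4 and 8. The GABAergic list had 18 and 38 UMIs, with *Gad1* and *Gad2*, the enzymes of GABA synthesis, at 2 and 0 UMIs in control and 1 and 2 in knockout, and *Sst*, *Vip* and *Lhx6* at 0 in both. Its UMIs came mainly from *Pvalb*, a calcium buffer (15 in control, 20 in knockout), and the neuropeptide gene *Npy* (0 and 15). In each list a few members carried the sum while others were at or near 0. The pyramidal list was also found in 38.4% of control and 48.8% of knockout bright barcodes, and the source cells of this RNA were not tested.

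Oligodendrocytes were the cell type whose list was past the fold upward in both libraries. Their 171 UMIs in control droplets and 172 in bright barcodes gave 2.79 (2.24 to 3.46), and 474 and 104 in knockout gave 3.96 (3.19 to 4.94). *Mbp*, the myelin basic protein gene, whose mRNA is carried into myelin, had 59 UMIs in control droplets and 20 in bright barcodes (8.27) and 153 and 11 in knockout (12.1). With each barcode weighted equally, oligodendrocytes in control droplets stood at 2.46 (1.99 to 3.05), just short of the call. Oligodendrocyte precursors lay on the other side, at 0.180 and 0.190, with 22 and 42 droplet UMIs of *Cspg4*, a surface proteoglycan (0.156 and 0.165). *Cspg4* was the one precursor marker with enough UMIs to be called, and without it the precursor list stood at 0.311 (0.129 to 0.647) and 0.316 (0.166 to 0.570) and was not called. In control, *Cnp*, the one oligodendrocyte marker with enough UMIs, stood at 1.78 (1.18 to 2.66).

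Astrocyte markers gave 136 CPM in control droplets and 246 in knockout, with list ratios of 0.813 (0.718 to 0.918) and 0.909 (0.824 to 1.00). The list was also found in 41.4% of control and 45.3% of knockout bright barcodes, and which cells its droplet RNA came from was not tested. The 5 richest bright barcodes held 42.6% in control and 53.7% in knockout of the bright UMIs of the list. Without them the ratios were on the other side of 1, at 1.41 (1.23 to 1.61) and 1.95 (1.72 to 2.21). As these barcodes were chosen for their counts of the list, leaving them out was bound to raise the ratio. The other 1006 control bright barcodes held 673 UMIs of the list, where the mean droplet level would have given 11.8. *Apoe*, the lipid carrier of astrocytes that microglia and choroid plexus also express, had 164 UMIs in control droplets and 381 in bright barcodes (1.21, 0.998 to 1.45) and 456 and 412 in knockout (0.961, 0.839 to 1.10). *Slc1a2*, the astrocytic glutamate transporter, stood at 0.422 and 0.536. Microglial markers gave 41.5 and 48.7 CPM, with list ratios of 0.694 (0.554 to 0.862) and 0.815 (0.656 to 1.01), not past the fold. This list was also found in 30.5% of control and 32.5% of knockout bright barcodes. Of its C1q complement genes, none alone had enough UMIs to be called. The C1q complement genes, which microglia transcribe, had 11 UMIs in control droplets against 1 in bright barcodes and 30 against 1 in knockout, with wide ratios of 30.8 (4.48 to 1327) and 26.0 (4.33 to 1062), while *P2ry12*, a microglial surface receptor, had 3 against 146 and 8 against 63. Markers of 1 cell type thus moved in opposite directions here as well, so that a list sum stood between its members.

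RNA of vessel and blood markers was sparse. Endothelial markers gave 36.7 and 69.1 CPM and mural markers 41.9 and 75.4. The endothelial list was also found in 39.0% of control and 44.3% of knockout bright barcodes, and the mural list in 32.1% and 30.3%. The source cells of this RNA were not tested. As a list, endothelial markers stood at 0.430 (0.341 to 0.536) in control and 0.684 (0.575 to 0.813) in knockout, not past the fold. *Pecam1*, an endothelial adhesion molecule, had 53 and 206 UMIs in control (0.721, 0.523 to 0.979) and 173 and 79 in knockout (1.90, 1.45 to 2.51). The other tested endothelial marker of each library was called lower, at 0.217 in control and 0.197 in knockout. Erythrocyte markers totalled 9 UMIs in control droplets and 12 in knockout, of which globins made up 8 and 10, against 3 and 2 globin UMIs in bright barcodes (ratios 7.47, 1.79 to 43.7, and 4.34, 0.925 to 40.7). *Alas2*, the haem synthesis enzyme of red cells, accounted for 70 of the 75 erythrocyte UMIs of control bright barcodes but 1 in control droplets and 2 in knockout. Neutrophil markers totalled 3 and 5 UMIs, with the granulocyte genes *S100a8* and *S100a9* at 0, and fibroblast markers 2.79 and 3.77 CPM. Markers of red cells and neutrophils together therefore gave under 20 UMIs in each pool.

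**Figure D4:**
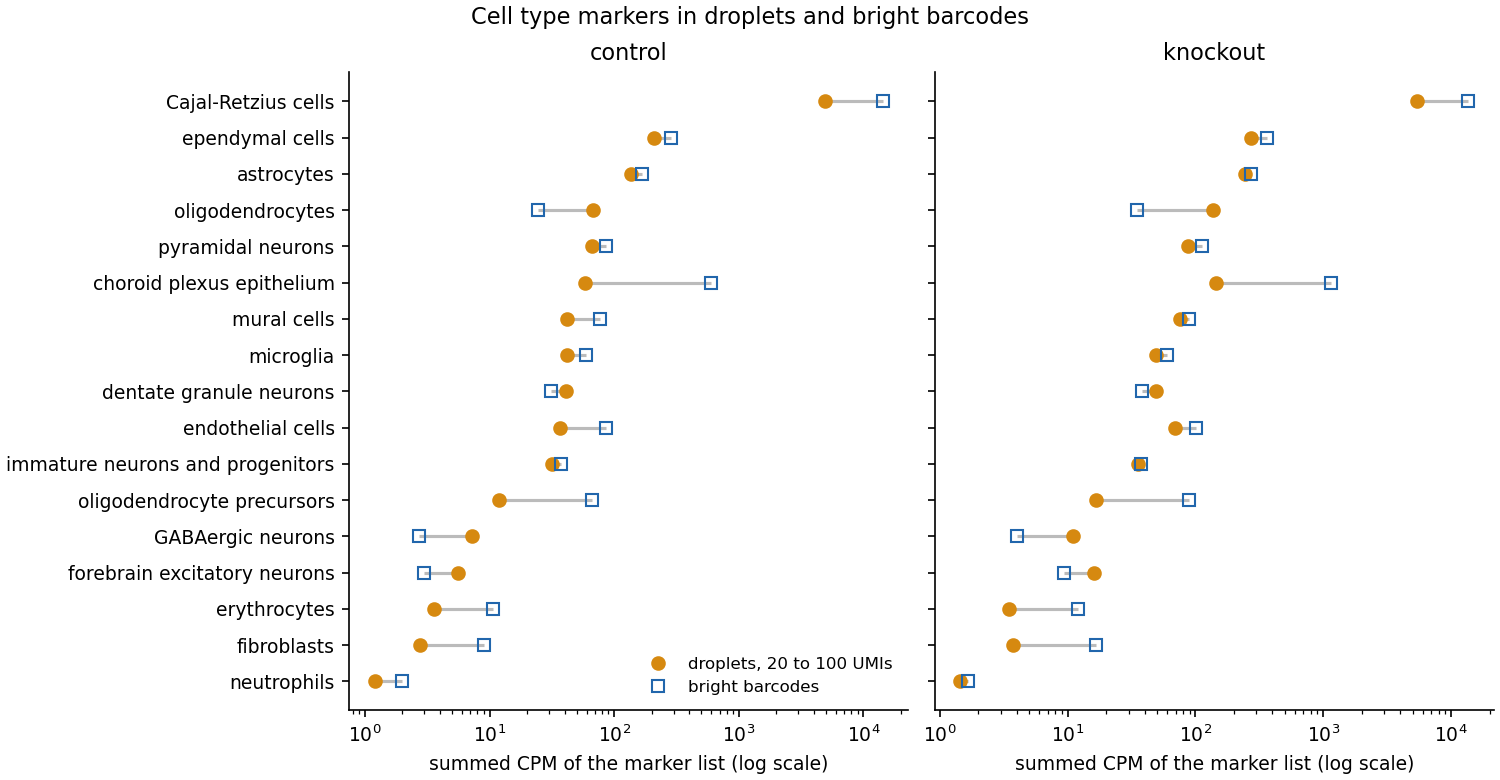
Summed CPM of each cell-type marker list (x axis, log scale) in droplets (filled circles) and bright barcodes (open squares), control left and knockout right, with a line joining the pair of each list. CR markers lead both, the oligodendrocyte list lies higher in droplets (ratios 2.79 and 3.96), and the choroid list shows the widest gap the other way (0.0967 and 0.127).

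The choroid plexus ratio turned on a handful of bright barcodes. The choroid list had 57.9 CPM in control droplets and 145 in knockout, against 598 and 1144 in bright barcodes, for ratios of 0.0967 (0.0814 to 0.114) and 0.127 (0.115 to 0.139). *Ttr*, the thyroxine carrier that choroid plexus epithelium makes in very large amounts, had 119 UMIs in control droplets and 3604 in bright barcodes and 424 and 3094 in knockout. Of the bright *Ttr* UMIs, 3584 in control (99.4%) and 3081 in knockout (99.6%) lay in 5 barcodes of each library. The remaining 1006 control bright barcodes held 20 *Ttr* UMIs and the remaining 401 knockout ones held 13, where the mean droplet level would have given 4.12 and 2.24. Without those 5 barcodes the ratio of *Ttr* was 16.6 (10.3 to 28.1) in control and 28.1 (16.2 to 53.2) in knockout, and that of the list with its own 5 highest barcodes left out 1.76 (1.42 to 2.17) and 3.31 (2.72 to 4.04). Of *Pcp4*, *Ttr* and *Apoe*, which were taken as marks of this RNA, *Pcp4* was thus past the fold upward, *Ttr* downward and *Apoe* neither over all bright barcodes. *Apoe*, like *Ttr*, was past the fold upward without its 5 richest bright barcodes, at 6.02 (4.56 to 8.01) and 3.42 (2.78 to 4.23). The sparse GABAergic and forebrain excitatory lists also moved in knockout, to 32.7 (5.52 to 1324) and 9.41 (3.80 to 30.1), with 1 and 5 UMIs left in bright barcodes. Leaving out the barcodes with the most UMIs of a gene or list was bound to raise its ratio. The intervals do not cover that choice, so these ratios only describe how few barcodes carried the bright counts. The ependymal list, for the ciliated cells beside the choroid plexus, stood at 0.741 and 0.740 through *Mia* (478 of 527 droplet UMIs in control, 652 of 931 in knockout). Without *Mia* it stood at 6.54 (3.85 to 11.5) and 2.37 (1.89 to 3.01). The whole ependymal list was also found in 71.2% of control and 75.1% of knockout bright barcodes.

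The main components of this RNA were spread over droplets somewhat less evenly than a single pool would give, and *Bc1* nearly as evenly. Spread is given as the variance of a gene's or list's UMIs per droplet over the variance expected from each droplet's total, so that 1 marks an even pool. *Bc1* stood at 1.03 in control and 1.05 in knockout, and was found in 20.3% and 21.9% of droplets where an even pool gives 20.6% and 22.2%. *Ttr* stood at 1.01 and 1.35, *Reln* at 1.10 and 1.19, the CR list at 1.12 and 1.25, ribosomal protein genes at 1.24 and 1.35 and *Pcp4* at 1.24 and 1.41. *Gm42418*, the most abundant gene, stood at 1.43 and 1.35. Oligodendrocyte and mitochondrial transcripts were the most clumped of the lists in knockout. Others above 1.5 included *Apoe* (1.66), the astrocyte list (1.62) and *Malat1* (1.52) in knockout and the erythrocyte list (2.33, 4 of its 9 UMIs in 1 droplet) in control. The oligodendrocyte list stood at 1.91 and 5.03, and at 1.13 and 1.63 without the 5 droplets that held most of it. In 1 knockout droplet, 36 of 85 UMIs (42.4%) were oligodendrocyte markers, 28 of them *Mbp*, and in 1 control droplet 11 of 93 were. Mitochondrial transcripts stood at 1.76 and 4.09, with 47 of 84 UMIs (56.0%) in 1 knockout droplet.

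The make-up of barcodes changed with their UMI total, and at different totals in each library. Ribosomal protein genes reached 119046 CPM in control barcodes of 50 to 100 UMIs and 109075 in those above 100 and below 200, but 75834 in the 693 control droplets of 20 to 49 UMIs. In knockout they stood at 108193 CPM at 20 to 49 UMIs, 100661 at 50 to 100 and 76869 above 100 and below 200. Nuclear-retained transcripts stood at 40217 CPM in control droplets of 20 to 49 UMIs and 7074 at 50 to 100, and at 6949 and 7407 in knockout. The few control droplets of 20 to 49 UMIs, on the low side of the crowded range, were thus nearer to bright barcodes (64810 CPM) in nuclear-retained RNA. Mitochondrial transcripts went from 7391 CPM above 100 and below 200 UMIs to 109824 from 500 to below 2000 in control, and from 9010 at 50 to 100 to 142216 from 500 to below 2000 in knockout, and markers of other cell types went up over the same totals, from 904 to 11343 CPM and from 1364 to 13267.

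**Figure D5:**
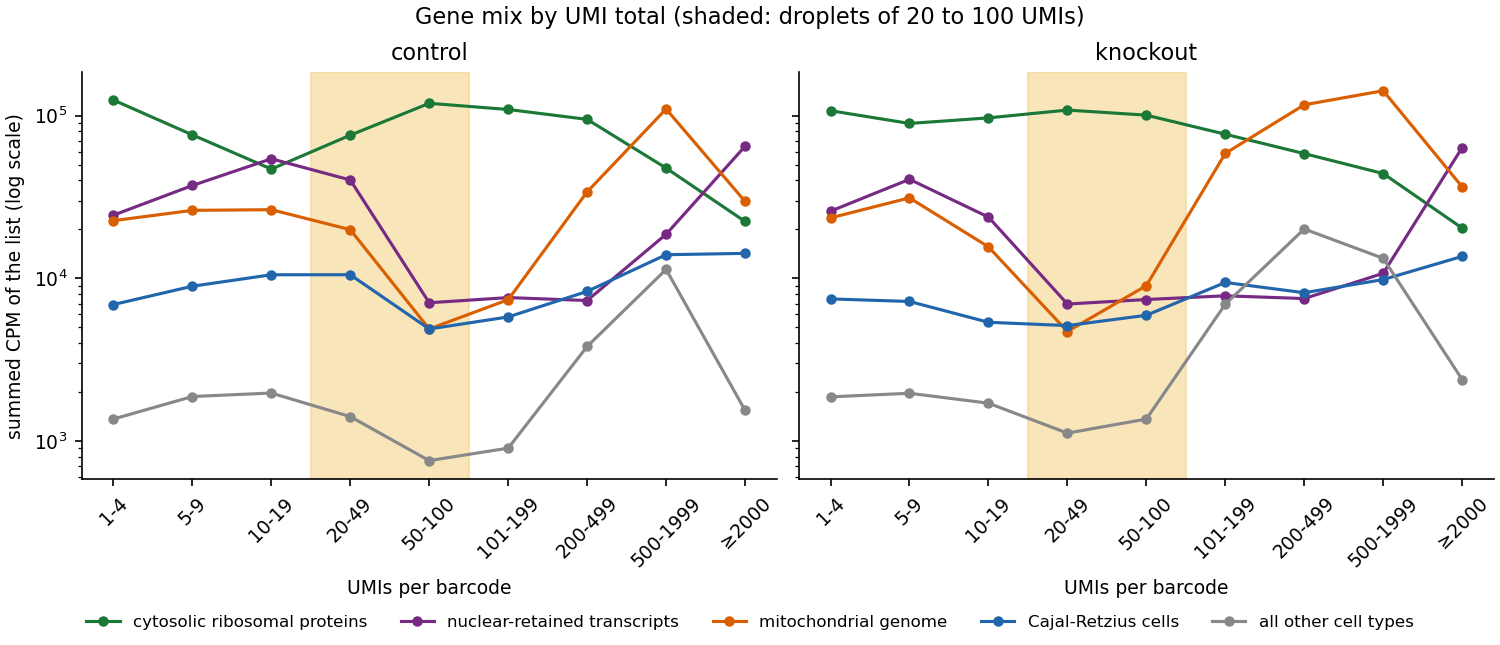
Summed CPM (y axis, log scale) of ribosomal protein, nuclear-retained, mitochondrial, CR and other cell-type genes by UMIs per barcode (x axis, in steps), control left and knockout right, with droplets of 20 to 100 UMIs shaded. In control, ribosomal protein genes rise and nuclear-retained transcripts fall on reaching 50 to 100 UMIs (119046 and 7074 CPM), whereas in knockout both are already there at 20 to 49 (108193 and 6949 CPM).

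A small number of bright barcodes were rich in ribosomal protein transcripts, as the droplets were. The median bright barcode had 1.12% of its UMIs in ribosomal protein genes in control and 0.973% in knockout, with maxima of 20.2% and 23.8%. In 74 of 1011 control bright barcodes (7.32%) and 34 of 406 knockout ones (8.37%) the share was at least 0.5 of that of the droplet pool, a limit chosen after the values were seen, with 23 and 6 barcodes within 0.4 to 0.6 of the pool's share. *Pcp4* stood at 1661 CPM in those control barcodes, 244 in the remaining bright barcodes and 2853 in droplets, and at 1534, 189 and 2581 CPM in knockout. Of these barcodes, 11 in control and 7 in knockout reached the share of the pool itself. Their nuclear-retained share remained above that of the droplets, with medians of 2.62% and 2.63% against 0.736% and 0.713%. They were not small, with a median of 13427 UMIs in control against 6062 in the rest.

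Droplets of the knockout and control libraries differed in few genes. Of 7333 genes with at least 100 UMIs in both droplet sums together, 33 (0.450%) were past 2-fold higher in knockout droplets and 2 (0.0273%) lower, a comparison of 1 library with another whose windows cover different parts of the crowded range. *Etv4* and *Etv5*, transcription factors of the ETS family, were among the 5 highest. *Etv4* had 1 UMI in control droplets and 147 in knockout (107, 18.9 to 4251), with 35.6 in bright barcodes, and *Etv5* had 8 and 155 (14.1, 6.98 to 33.2), with 4.77 in bright barcodes. *C1ql1*, a secreted synaptic protein, had 53 and 289 UMIs (3.97, bright 9.66). Of the 33 genes, 22 could be called in bright barcodes, where 4 (*Gm12682*, *C1ql1*, *Etv5* and *Etv4*) were also higher, 18 lay between the limits and 0 were lower. *C1ql1*, *Etv5* and *Etv4* belong to the list of genes high in the knockout, which was chosen from these libraries. Their level in bright barcodes is therefore no separate support. The share of all genes higher between the bright pools was not computed.

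Other genes were called higher in knockout droplets, and in bright barcodes were not called higher or had too few UMIs to be called. *Nkain2*, a membrane protein that interacts with the sodium pump, had 113 and 799 UMIs (5.14, 4.22 to 6.32; bright 1.22), spread evenly over knockout droplets at 1.01. *Dgkb*, a diacylglycerol kinase, had 32 and 277 (6.30, 4.36 to 9.38; bright 1.64), and the Y-linked *Gm21294* had 24 and 476 (14.4, 9.58 to 22.7), 24 of the latter in 1 droplet, with 2 UMIs in the bright barcodes of each library. *Gm21294* was clumped over knockout droplets, with a spread of 9.66, and had too few bright UMIs to be called. *Ttr* was higher at 2.59 (2.11 to 3.20), with 2.02 (1.92 to 2.12) in bright barcodes. *Bc1* was higher at 2.08 (2.02 to 2.14), with 2.04 (1.93 to 2.16) in bright barcodes. The droplet and bright intervals of each overlap, so neither was shown to differ more in droplets than in bright barcodes. Of the bright *Ttr* UMIs, 99.4% in control and 99.6% in knockout lay in 5 barcodes of each library. The bright interval of *Ttr* covers counting error only and not how those few barcodes varied. *Apoe*, at 2.02, had an interval that reached below 2 (1.69 to 2.43). Between droplets of 50 to 100 UMIs alone, 19 genes were higher and 1 lower, and between barcodes of 10 to 200 UMIs 51 were higher and 10 lower. Between droplets of 20 to 49 UMIs, 8 genes were higher and 110 lower. The control side there was 693 droplets with 21956 UMIs. Their nuclear-retained level of 40217 CPM was nearer to that of bright barcodes, so this window compared unlike barcodes. *Slc5a4b*, a sugar transporter family member, was lower, with 173 and 21 UMIs (0.0883, 0.0533 to 0.139; bright 0.344), and so was *B230312C02Rik* with 79 and 30 (0.276). The next in order, *Reps2* (0.354), *Tstd2* (0.425) and *Kazn* (0.460), were not past the fold.

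None of the 9 CR markers was past the fold between the droplet pools. Their knockout over control ratios ran from 0.933 (0.881 to 0.988) for *Reln* to 1.29 (1.21 to 1.39) for *Calb2* and 1.36 (1.28 to 1.45) for *Nhlh2*, with *Trp73* at 1.05. *Pcp4*, which is not in the CR list, stood at 0.905. *Cic* itself had 223 UMIs in control droplets and 390 in control bright barcodes (1.60, 1.35 to 1.89), and 231 and 142 in knockout (1.41, 1.14 to 1.75). Its droplet level was 89.0 CPM in control and 67.0 in knockout, a ratio of 0.753 (0.624 to 0.910). Which exons these 3′ reads cover was not analysed here, so the level does not check the deletion. Of bright barcodes, 0 sequences were shared by the libraries, and of droplet barcodes 565 were (1.95% of control, 0.745% of knockout). Within a library, 404 control and 270 knockout droplets had a barcode 1 mismatch from a bright one.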

How the data were processed

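Each library was deposited as 1 matrix of raw UMI counts, which the authors made with Cell Ranger. The matrix headers carry format version 4, the submitters' processing notes name Cell Ranger 8.0.1, and the study's methods name another version and build, so the aligner version and build of the counts stay uncertain. Ensembl IDs were matched to GENCODE M21 (32235 of 32285) for gene spans and protein lengths. Counts were summed over barcodes of 20 to 100 UMIs and over those of at least 2000 UMIs, with all 32285 genes kept and no cell or doublet filter. Ratios of CPM were given exact 95% Poisson intervals (Python 3.11.15, scipy 1.17.1, numpy 2.4.6, pandas 2.3.3) and the calculation was tested on simulated data. Lists had no count minimum. PCR duplicates were collapsed by UMI, and intervals cover counting error only.

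The members, gene lists and limits were chosen with earlier results of these data known. Named genes were the 12 highest and 12 lowest ratios, ranked by the interval bound nearer to 1 in the library where it was nearer, the 10 most abundant of each droplet pool, the 5 highest and 5 lowest between pools, *Pcp4*, *Ttr*, *Apoe*, *Reln*, *Trp73*, *Cic* and list members. Other UMI windows, minimum counts, scalings, weightings and left-out barcodes were tried as alternatives. The result of 1 class of genes is not reported here.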

Additional observations from a re-analysis of the deposited data

Results flagged for a closer look

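*Pecam1*, an endothelial adhesion gene, lay on opposite sides of 1 in the libraries. Its ratio of droplets to bright barcodes was 0.721 (0.523 to 0.979) in control and 1.90 (1.45 to 2.51) in knockout, and the difference was not tested, since each genotype had 1 library.

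Barcodes of at least 200 but under 2000 UMIs belong to neither the droplets nor the bright barcodes, and held glial RNA above the level of the droplets. The astrocyte list stood at 4011 CPM in control and 12519 in knockout, against 136 and 246 CPM in droplets. The oligodendrocyte list stood at 1124 CPM in control and 434 in knockout, against 68.2 and 138 CPM in droplets. These differences were not tested.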

How the results depend on the processing

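With 1 library per genotype no difference was tested, and lists of a few UMIs, such as those of blood cells, have intervals wider than 2-fold. No paired analysis was possible because each genotype had 1 library. Of 1320 called single values over all alternatives, 1312 kept their direction, 8 reversed and 79 moved over 1.5-fold. The alternatives of a minimum of 20 UMIs and of no minimum (72 values each) could not change a ratio, so their direction was fixed. Of 1823 single values, called or not, 504 moved outside the interval of the main value, apart from the 8 that reversed. The alternatives without 6 abundant unlisted genes, without 5 bright barcodes and without a list's most abundant member were chosen after seeing the data. Some alternatives left out the genes or barcodes that carried a value, which shows only what carried it. No cause was tested.

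Control depended on its window: in the 693 control droplets of 20 to 49 UMIs, 115 genes were higher and 1 lower. Of cell-type lists 0 were higher and 0 lower, and of classes 4 were higher and 0 lower. These droplets held 21956 UMIs, so calls of sparse genes and lists were limited by low counts. Their mix also differed from that of the whole window. Nuclear-retained transcripts stood at 40217 CPM and mitochondrial ones at 19903, nearer to bright barcodes (64810 and 29698), so these classes were not called lower. *Gm10800* and *Gtse1* stood at a ratio of 0, with intervals (0 to 162 and 0 to 11.1) that include their main ratios of 62.0 and 7.58. *4930415C11Rik* reversed to 1.47 (0.400 to 3.78), an interval that includes 1. The share of coding UMIs from proteins under 200 residues was 23.4% in control and 31.8% in knockout in droplets of 20 to 49 UMIs, 33.8% and 30.3% at 50 to 100, and 32.5% and 31.1% at 10 to 200. The same share was 27.0% and 24.9% without mitochondrial and ribosomal protein genes, 24.2% and 22.1% without ribosomal protein and respiratory chain genes, and 35.1% and 32.6% without the 6 abundant genes. It was 33.8% and 31.3% without droplets 1 mismatch from a bright barcode, and 33.6% and 31.4% with each barcode weighted equally. Equal weights left 0 cell-type lists higher in control.

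Without the 5 bright barcodes richest in a list, the choroid list reversed to 1.76 in control and 3.31 in knockout, and 4 cell-type lists were higher and 2 lower in knockout. Without the richest single bright barcode, 2 were higher in knockout. In both alternatives the barcodes were chosen by their counts of the list, so its ratio was bound to rise. Without a list's most abundant member, the dendritic list reversed to 0.783 and 0.872 and the fibroblast list to 1.30 in knockout, 2 cell-type lists were higher and 1 lower in control, and in knockout 1 was lower, 4 classes were higher and 3 lower. The CR and precursor lists lost their call in both libraries, and the immediate early and heat shock lists in knockout. Between knockout and control droplets, 8 genes were higher and 110 lower at 20 to 49 UMIs, 19 and 1 at 50 to 100, and 51 and 10 at 10 to 200. Scaling without mitochondrial and ribosomal protein genes moved the median log2 ratio of all genes by 0.12 in control and 0.09 in knockout, and scaling without the 6 genes by 0.14 and 0.13.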
